A study of Homo sapiens with 6 samples.

Results

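Antisense RNAs named after the gene they face were the subject here. They were taken by name, as the rows of the authors' deposited table whose gene symbol ends in -AS followed by a digit, and 135 of the 6018 listed genes met this rule. The symbol came from the table for 102 of them and, where the table gave none, from the gene name table by Ensembl identifier for 33. GENCODE release 29 (GRCh38) holds all 135 and types 109 as antisense, 15 as processed transcripts, 9 as lincRNA and 2 as transcribed pseudogenes, so the name and the annotated type do not always match.

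A natural antisense RNA is transcribed from the strand opposite another gene, its sense partner. Some start beside the partner's promoter and run the other way, some end inside it, and some lie wholly within it. Such RNAs are described as acting on the partner in cis, through chromatin, transcription or the pairing of the transcripts, but many are scarce and without a known function. Most are named only for where they lie.

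The series holds 3 libraries of an abiraterone-selected subline of C4-2B and 3 libraries of parental C4-2B cells. C4-2B is an established prostate cancer line derived from LNCaP, and abiraterone inhibits the androgen-synthesis enzyme CYP17A1. The subline was selected in 1 to 20 µM abiraterone for at least 6 months, was kept in 5 µM, and is given as passage 15 to 18, whereas the parental cells were passaged in 1% DMSO and are given as passage 0. Both grew in 10% serum, and RNA extraction is described for cells treated with 10 µM abiraterone, in wording that fits 1 line or both.

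What was deposited is a DESeq2 result in which the authors set a condition C against a condition V, and it has no value per library. The header of the authors' deposited table calls C control and V vehicle and gives a positive log2 fold change to genes higher in C. It ties neither letter to a cell line. The titles of the parental libraries carry a V, but the series text also calls these cells the control, so directions are stated by these letters and not by cell line. In bulk RNA, fewer cells of a kind and less RNA per cell cannot be told apart, and the difference in passage cannot be told apart from the difference in line. The table is a selection, in which p is always under 0.05 and the log2 fold change is never smaller in size than 1.20; genes outside it may have missed either limit, and nothing follows about their level. Genes with a listed adjusted p under 0.05 are referred to as called. Bracketed values with ± give the authors' log2 fold change (C over V) and the standard error they list for it. Derived levels, in normalised counts, are the 2 means that average to the listed mean and have the listed ratio; they assume as many libraries in C as in V and carry no error. Of the 10 luminal markers of the line checked, 3 were listed, and their derived levels summed to 19332 in C and 7545 in V. KLK3 (15170 in C and 3363 in V) and KLK2 (2798 in C and 466 in V) were higher in C, whereas KRT8 (1364 in C and 3715 in V) was higher in V. Of the 13 leukocyte, endothelial and fibroblast markers 6 were listed. Their summed derived levels were 1.33 in C and 62.5 in V for 3 leukocyte markers, 0.165 in C and 14.9 in V for the endothelial marker PECAM1, and 82.5 in C and 297 in V for 2 fibroblast markers. Of these, COL1A1 was higher in V (72.4 in C and 294 in V) and PDGFRB higher in C (10.2 in C and 2.96 in V). Their part in the results was not tested.

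Promoter sequence is shown for 3 pairs whose starts lie close together on opposite strands and whose genes were both called on the same side: the immunoproteasome pair PSMB8-AS1 and PSMB8 and the zinc finger pair ZNF503-AS2 and ZNF503, higher in V, and the nuclear envelope pair TMPO-AS1 and TMPO, higher in C. Each line is the RefSeq window (GRCh38.p14) from 250 bases before to 50 after the gene's start, 5′ to 3′ on the gene's own strand. Capitals mark matches on either strand to a GC box (GGGCGG), to a CCAAT box (its own letters), to a TATA box (TATAAA) or to an E2F-type motif (TTTNNCGC), and to an interferon response type, in which GAAA occurs at both ends of any 2 bases. The windows lie at chr6:32843836-32844135 (+ strand) for PSMB8-AS1, chr6:32844630-32844929 (- strand) for PSMB8, chr10:75401278-75401577 (+ strand) for ZNF503-AS2, chr10:75401867-75402166 (- strand) for ZNF503, chr12:98516177-98516476 (- strand) for TMPO-AS1 and chr12:98515323-98515622 (+ strand) for TMPO.
PSMB8-AS1: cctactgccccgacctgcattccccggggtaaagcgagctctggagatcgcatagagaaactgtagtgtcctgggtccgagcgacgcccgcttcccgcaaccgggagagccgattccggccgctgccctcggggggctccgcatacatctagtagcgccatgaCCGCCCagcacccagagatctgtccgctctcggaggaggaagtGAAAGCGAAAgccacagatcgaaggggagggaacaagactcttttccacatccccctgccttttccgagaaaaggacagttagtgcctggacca
PSMB8: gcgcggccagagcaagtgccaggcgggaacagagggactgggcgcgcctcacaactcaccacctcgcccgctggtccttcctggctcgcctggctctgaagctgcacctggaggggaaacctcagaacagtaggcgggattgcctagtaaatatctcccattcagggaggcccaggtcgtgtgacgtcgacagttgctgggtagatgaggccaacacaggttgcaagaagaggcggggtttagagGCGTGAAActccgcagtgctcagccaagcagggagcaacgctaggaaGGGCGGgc
ZNF503-AS2: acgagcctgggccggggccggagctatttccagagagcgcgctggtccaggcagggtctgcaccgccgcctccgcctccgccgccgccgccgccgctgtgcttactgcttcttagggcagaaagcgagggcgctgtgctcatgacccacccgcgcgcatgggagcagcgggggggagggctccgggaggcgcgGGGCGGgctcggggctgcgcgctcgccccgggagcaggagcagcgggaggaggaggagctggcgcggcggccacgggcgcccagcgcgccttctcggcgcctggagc
ZNF503: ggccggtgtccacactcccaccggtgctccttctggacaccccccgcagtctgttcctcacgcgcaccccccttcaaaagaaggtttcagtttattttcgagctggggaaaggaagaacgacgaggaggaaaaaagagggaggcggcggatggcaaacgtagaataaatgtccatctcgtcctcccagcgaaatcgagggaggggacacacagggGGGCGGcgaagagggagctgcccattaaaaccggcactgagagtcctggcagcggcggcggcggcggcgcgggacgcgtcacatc
TMPO-AS1: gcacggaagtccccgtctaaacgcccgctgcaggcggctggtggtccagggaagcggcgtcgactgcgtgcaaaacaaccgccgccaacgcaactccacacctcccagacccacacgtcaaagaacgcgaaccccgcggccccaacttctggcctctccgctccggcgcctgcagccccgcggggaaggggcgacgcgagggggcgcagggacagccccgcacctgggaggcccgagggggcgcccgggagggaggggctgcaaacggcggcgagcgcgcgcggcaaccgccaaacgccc
TMPO: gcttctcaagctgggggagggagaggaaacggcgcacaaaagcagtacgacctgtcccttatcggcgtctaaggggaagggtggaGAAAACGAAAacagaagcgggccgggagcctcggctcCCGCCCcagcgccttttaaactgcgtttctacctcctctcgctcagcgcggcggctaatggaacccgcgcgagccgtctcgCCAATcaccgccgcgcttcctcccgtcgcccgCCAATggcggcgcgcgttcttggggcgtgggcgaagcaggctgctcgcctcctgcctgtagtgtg

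The starts of these pairs lie 593, 388 and 653 bases apart in RefSeq, and in all 3 the transcripts run towards each other and overlap at their 5′ ends in that annotation. No window overlaps its partner's. The PSMB8-AS1 window holds 1 match of the interferon response type, a pattern found in 3.65% of the 27305 RefSeq windows used, 1 per symbol. The TMPO window also holds 1, together with 2 CCAAT matches, while the TMPO-AS1 window holds no match to any of the 5 patterns. In GENCODE, PSMB9 starts 50 bases from PSMB8-AS1 on the same strand, so the PSMB8-AS1 window also lies beside the PSMB9 start. Both ZNF503 windows hold 1 GC box each, as do 44.6% of all windows at least once. A match is a run of letters and not a shown binding site. RefSeq windows were found for 97 of the 135 antisense RNAs. Among the called ones, the median number of CpG dinucleotides per window was 22 over the 41 windows of those higher in C and 13 over the 44 windows of those higher in V, against 14 over all windows used. These medians are descriptions and were not tested. Of these 85 windows, 38 (44.7%) held a GC box, 22 (25.9%) CCAAT against 35.7% of all windows, 5 (5.88%) TATAAA against 12.0%, 6 (7.06%) the E2F-type pattern against 6.90%, and 3 (3.53%) the interferon response pattern against 3.65%.

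The antisense RNAs divided between both sides. In the authors' deposited table, 119 of the 135 were called (88.1%; 89.4% of all listed genes were called): 55 stood higher in C and 64 in V. As shares of the listed genes, 40.7% of the antisense RNAs were called and higher in C, against 46.0% of all listed genes, and 47.4% were called and higher in V, against 43.4%. Of the called antisense RNAs 46.2% were thus higher in C. That share was 34.1% in called protein-coding genes and 70.6% in the called genes that are neither protein-coding nor in the set. Other classes of long noncoding RNA gave 8 of 30 higher in C for divergent transcripts (symbols ending in -DT), 13 of 14 for intronic transcripts (-IT and a digit), 39 of 81 for LINC genes and 65 of 129 for other genes typed antisense. None of these differences in share was tested.

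**Figure D1:**
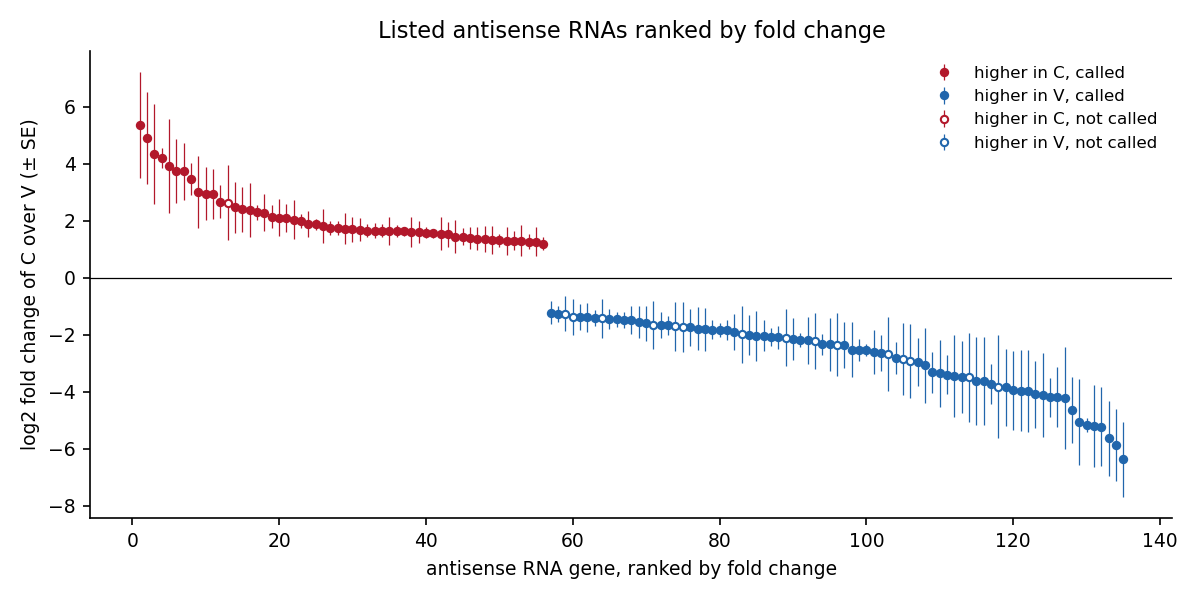
Log2 fold change of C over V (y axis, bars ± the listed standard error) for the 135 listed antisense RNAs, ranked from highest in C to highest in V (x axis). Red points are higher in C and blue points higher in V, filled where called. The called ones run from 1.20 to 5.36 above 0 and from -6.38 to -1.22 below it, with no values in the gap that the limit of the table leaves.

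By their medians, which were not tested, antisense RNAs higher in V had larger fold changes and lower levels. The median log2 fold change per the authors' deposited table was 1.72 for the 55 called ones higher in C and -2.52 for the 64 higher in V. Their median mean levels were 17.8 normalised counts for those higher in C and 11.6 for those higher in V. The median standard error was 0.49 for those higher in C and 0.71 for those higher in V, and the median exon length was 2850 bases for those higher in C and 1993 for those higher in V. Called antisense RNAs had means of 1.38 to 294 normalised counts, and 47 of them were under 10. The 47 were higher in C for 16 and higher in V for 31, while of the 65 with means from 10 to 100 there were 36 higher in C and 29 higher in V. For 24 of the 119, 7 higher in C and 17 higher in V, the lower of the derived levels did not reach 1 normalised count, which leaves the fold change poorly determined in size. The 16 that were listed but not called comprised 1 higher in C and 15 higher in V. Beside the call limit stood B4GALT1-AS1 with an adjusted p of 0.0484, which was called, and CYLD-AS1 with 0.0535, which was not, both per the authors' deposited table.

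KHDC1-AS1 led the antisense RNAs higher in C, with the smallest p on that side (4.20 ± 0.35, adjusted p = 1.22e-31 per the authors' deposited table). It had a derived level of 121 normalised counts in C and 6.60 in V. It lies at 73263215 to 73301401 on chromosome 6 (GENCODE 29, GRCh38), overlapping the span of KHDC1 without sharing exon sequence with it. MCM3AP-AS1, which faces the gene of an mRNA export and MCM3-acetylating protein, had derived levels of 219 in C and 74.3 in V (1.56 ± 0.15 per the authors' deposited table). STX18-AS1, opposite a syntaxin gene, had 230 in C and 74.3 in V (1.63 ± 0.16 per the authors' deposited table). The next 7 by p on this side were EMC3-AS1, SLC16A4-AS1, ZNF337-AS1, ZNF790-AS1, ARHGEF26-AS1, VASH1-AS1 and ZNF710-AS1, with log2 fold changes of 1.58 to 2.30 per the authors' deposited table; of these 7, VASH1-AS1 and ZNF710-AS1 had a listed partner.

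TM4SF18-AS1 was the most abundant antisense RNA in the set and the one with the smallest p (-5.18 ± 0.24, adjusted p = 2.93e-99 per the authors' deposited table). It had a derived level of 15.8 normalised counts in C and 572 in V. It lies at 149284782 to 149333653 on chromosome 3 (GENCODE 29, GRCh38) and shares 141 exon bases with TM4SF18, a tetraspanin-like membrane protein gene that was not listed. SLC9A3-AS1, opposite the gene of a sodium-proton exchanger, had derived levels of 37.3 in C and 169 in V (-2.18 ± 0.24 per the authors' deposited table). The others among the 10 smallest p on the V side were ELF3-AS1, IRF1-AS1, SLCO4A1-AS2, DLGAP1-AS1, CTNS-AS1, FAM131B-AS2, PTOV1-AS2 and MCPH1-AS1, with log2 fold changes of -4.20 to -1.47 per the authors' deposited table. PAX8-AS1 (2.47 ± 0.89) and CCDC144NL-AS1 (-2.01 ± 0.69) had means of 196 and 195 normalised counts, next below TM4SF18-AS1, but standard errors several times larger than its own per the authors' deposited table.

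Of the 44 antisense RNAs fixed as having a published role in cancer or immunity, 8 were listed, split 4 to 4 between C and V. All 8 were called, but so were 89.4% of all listed genes, so this count does not set the list apart. Higher in C per the authors' deposited table were MCM3AP-AS1 (1.56 ± 0.15), FOXP4-AS1 (1.37 ± 0.41), NR2F1-AS1 (1.30 ± 0.49) and TMPO-AS1 (1.27 ± 0.28). Higher in V per the authors' deposited table were AFAP1-AS1 (-4.20 ± 1.05), PSMB8-AS1 (-3.96 ± 1.44), IRF1-AS1 (-1.84 ± 0.25) and ZEB1-AS1 (-1.27 ± 0.29). The 4 fold changes on the C side differed by less than the largest of their standard errors.

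The question that the names pose is whether an antisense RNA and its sense partner lay on the same side. A partner of that name was listed for 43 antisense RNAs, with 42 different partners because DLGAP1-AS1 and DLGAP1-AS2 share DLGAP1. Both genes were called in 35 pairs, and in 30 of these (85.7%) they lay on the same side, 5 pairs higher in C and 25 higher in V. In 5 pairs they lay on opposite sides, 4 with the antisense RNA higher in C and its partner higher in V, and 1 the other way. Over all 43 listed pairs the counts were 35 on the same side and 8 on opposite sides. Of the partners in called pairs 6 were higher in C and 29 higher in V, so most pairs stood where most called protein-coding genes stood. Called antisense RNAs with a listed partner were higher in C for 11 of 39 (28.2%), against 44 of 80 (55.0%) for those whose partner was not listed.

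**Figure D2:**
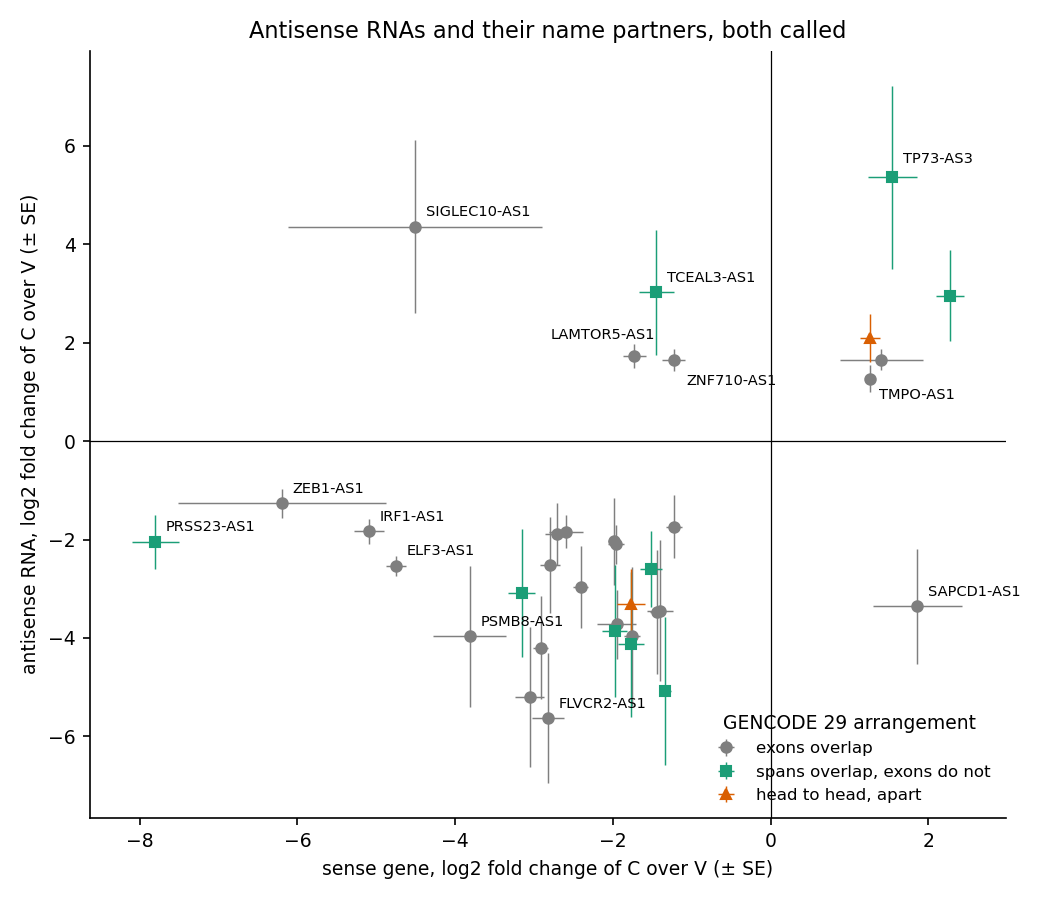
Log2 fold change of C over V of the sense gene (x axis) and of its antisense RNA (y axis) for the 35 pairs with both genes called, bars ± the listed standard errors. Marker shapes give the arrangement of the genes in GENCODE 29. The lower left holds 25 pairs and the upper right 5, the upper left 4 and the lower right 1, SAPCD1-AS1.

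The nearest other called genes gave a rough measure of how often genes along a chromosome lie on the same side. Their distances, taken between the nearest end positions, varied widely. Examples were 2 for SAPCD1-AS1 (1 base between the genes), 585 for FAM131B-AS2, 1637418 for TMPO-AS1 and 5846812 for MRAP-AS1. The partners in called pairs overlapped their antisense RNA or lay at most 186 bases from it, so the 2 kinds of pair are not matched for distance. For each of the 119 called antisense RNAs the nearest called protein-coding gene that neither overlapped it nor was its partner lay on the same side in 78 cases (65.5%) and on the opposite side in 41. Restricted to the antisense RNAs of the 35 called pairs, the count was 24 on the same side (68.6%) and 11 on the opposite side. Divergent transcripts and their name partners lay on the same side in 11 of 11 called pairs. Other genes typed antisense lay on the same side as an overlapping called protein-coding gene of the opposite strand in 23 of 28 pairs (82.1%). These are descriptions of 1 table, in which all pairs share the same libraries, and the differences between these shares were not tested.

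The arrangement of the genes bears on how such pairs can be read. The protocol names both a TruSeq V2 kit and a stranded kit for total RNA, and whether counting used strand is not stated, so reads from exons that overlap cannot be assigned to 1 of the genes. In GENCODE 29 the exons of 97 antisense RNAs overlap those of the partner, over a median of 302 bases. In 29 more the spans overlap but the exons do not, in 7 the genes lie head to head and apart, with starts at most 1000 bases from each other, 1 lies on the same strand as its partner (FAM131B-AS2) and 1 (KRTAP5-AS1) has no gene of the partner name. Among called pairs, 20 of 24 with overlapping exons lay on the same side. Without exon overlap it was 10 of 11, made up of 8 of 9 with overlapping spans and 2 of 2 apart. Reads from introns within overlapping spans were not examined, so these 9 pairs are not shown to be free of the limit. By GENCODE 29, starts on opposite strands within 1000 bases of each other occurred in 12 called pairs, which lay on the same side, and the other 23 gave 18 on the same side and 5 on opposite sides. This split depended on the annotation. Of the 24 called pairs with both starts in RefSeq, 13 came that near, 12 on the same side and LAMTOR5 on opposite sides, with starts 115 bases apart, and 11 did not, 10 on the same side and 1 on opposite sides. STIM2, ELF3, ID2, CAPN1, ZEB1 and LAMTOR5 were near in RefSeq only, and SEMA3B in GENCODE 29 only; the RefSeq count was added after the values were seen.

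**Figure D3:**
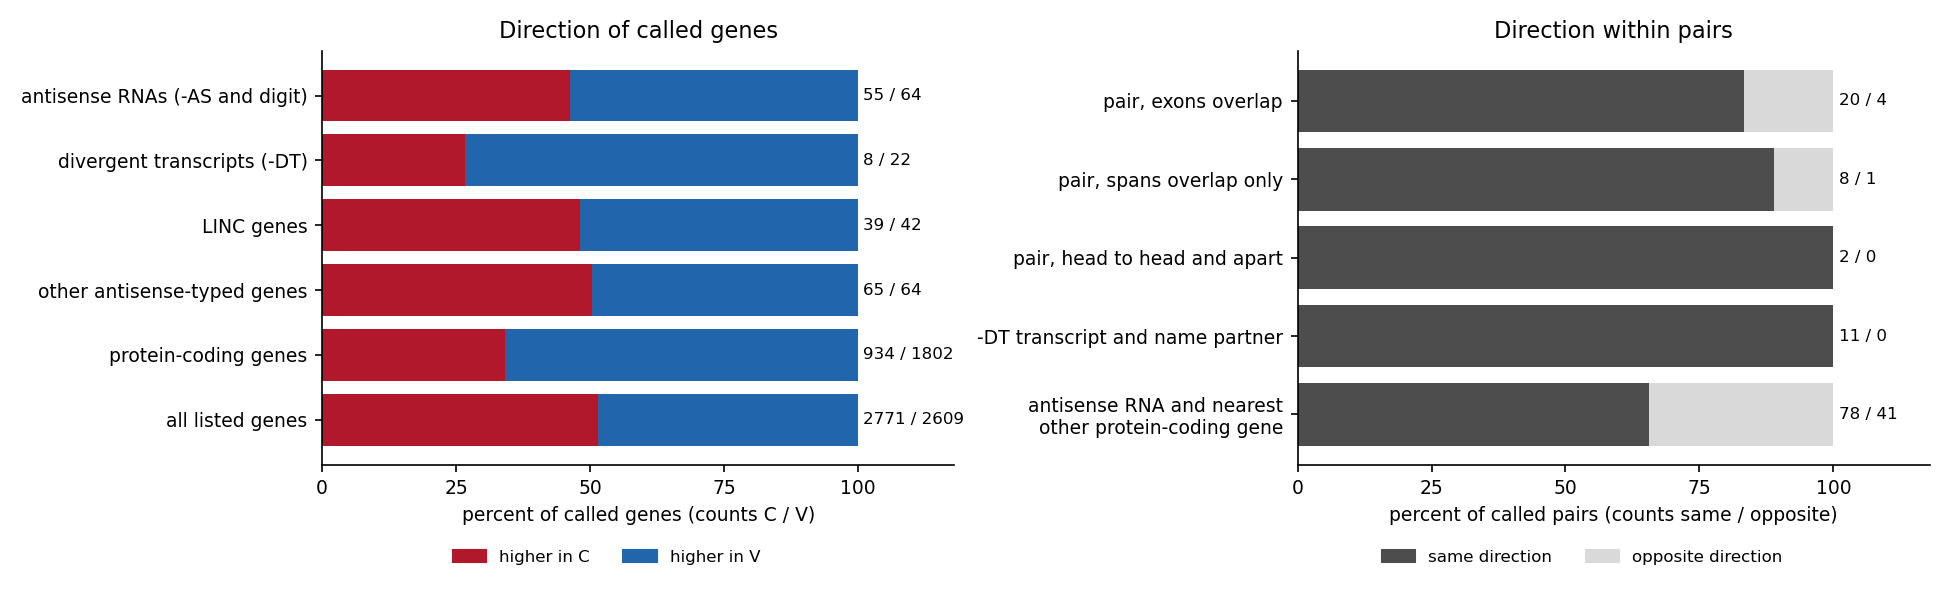
Left, percent of called genes (x axis) higher in C (red) and higher in V (blue) for 6 classes of genes (y axis), with the counts C / V at the right of each bar. Right, percent of called pairs (x axis) on the same side (dark) and on opposite sides (light), by arrangement and for 2 comparison sets (y axis), with the counts same / opposite. The antisense RNAs stand at 55 / 64 and the exon-overlapping pairs at 20 / 4.

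Several partners higher in V with their antisense RNA encode regulators of transcription, a grouping made after the values were seen. IRF1, a driver of interferon-induced transcription, had derived levels of 21.5 normalised counts in C and 733 in V (-5.09 ± 0.19 per the authors' deposited table). Its antisense RNA IRF1-AS1 had 25.5 in C and 91.0 in V (-1.84 ± 0.25 per the authors' deposited table). Both were lower in C, and the 95% intervals of the fold changes, -2.32 to -1.35 for the antisense RNA and -5.47 to -4.71 for IRF1, did not overlap. IRF1-AS1 lies at 132410636 to 132488702 on the plus strand of chromosome 5 and IRF1 at 132481609 to 132490798 on the minus strand (GENCODE 29, GRCh38). They share 1716 exon bases, 17.6% of the antisense RNA's exon length.

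ELF3, an epithelial transcription factor, had derived levels of 62.0 normalised counts in C and 1666 in V (-4.75 ± 0.13 per the authors' deposited table). ELF3-AS1 had 38.1 in C and 221 in V (-2.53 ± 0.20 per the authors' deposited table). Per kb of exon, the derived level of ELF3-AS1 was 79.3% of that of ELF3 in C and 17.1% in V, and for IRF1-AS1 against IRF1 it was 95.1% in C and 9.95% in V. In both pairs the sense gene had the larger fold change. ELF3-AS1 and ELF3 share 664 exon bases, 11.9% of the antisense RNA's exons.

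ZEB1, a repressor of epithelial genes, was scarce, with a derived level of 0.183 normalised counts in C and 13.4 in V (-6.20 ± 1.32 per the authors' deposited table). ZEB1-AS1 was the more abundant of the pair, with 30.1 in C and 72.3 in V (-1.27 ± 0.29 per the authors' deposited table). The size of the ZEB1 fold change is poorly determined at such a level in C. The pair shares 366 exon bases.

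SOX9, a lineage factor, and SOX9-AS1 had nearly equal fold changes (-3.16 ± 0.18 and -3.08 ± 1.30 per the authors' deposited table) without exon overlap. SOX9 stood at 44.4 normalised counts in C and 397 in V, and SOX9-AS1 at 2.79 in C and 23.6 in V. TFAP2A, an AP-2 transcription factor (-1.95 ± 0.25), and TFAP2A-AS1 (-3.72 ± 0.70) were higher in V per the authors' deposited table, as were KLF3, a Krüppel-type repressor (-2.41 ± 0.09), and KLF3-AS1 (-2.97 ± 0.84). ID2, an inhibitor of helix-loop-helix factors, was listed at -2.71 ± 0.15 and ID2-AS1 at -1.90 ± 0.63 per the authors' deposited table. ZNF503 (-2.60 ± 0.22) and ZNF503-AS2 (-1.84 ± 0.34), also higher in V per the authors' deposited table, start 387 bases apart in GENCODE 29 and share 388 exon bases, 11.6% of the antisense RNA's exons. ZNF503-AS2 had a derived level of 20.3 normalised counts in C and 72.5 in V.

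PSMB8, the immunoproteasome subunit, had derived levels of 4.51 normalised counts in C and 63.4 in V (-3.81 ± 0.46 per the authors' deposited table). PSMB8-AS1 had 0.361 in C and 5.63 in V (-3.96 ± 1.44, adjusted p = 0.0151 per the authors' deposited table). They share 618 exon bases, 31.7% of the antisense RNA's exons, and the low level of PSMB8-AS1 in C leaves the size of its fold change poorly determined. PSMB8-AS1 also shares 174 exon bases with PSMB9, which lies on the same strand and starts 50 bases away. Reads from those bases cannot be told apart. LIF, a cytokine of the interleukin 6 family, was listed at -3.06 ± 0.19 and LIF-AS2 at -5.20 ± 1.43 per the authors' deposited table. BCL10, an adaptor of NF-kB signalling, stood at -1.76 ± 0.11 and BCL10-AS1 at -3.96 ± 1.41 per the authors' deposited table. LIF-AS2 and BCL10-AS1 had derived levels in C of 0.168 and 0.379 normalised counts.

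Other partners higher in V with their antisense RNA belong to membrane, cytoskeletal and enzyme genes. AFAP1, an actin-binding adaptor, had derived levels of 156 normalised counts in C and 1175 in V (-2.91 ± 0.09 per the authors' deposited table). AFAP1-AS1 had 6.11 in C and 112 in V (-4.20 ± 1.05 per the authors' deposited table), and the intervals of the fold changes overlapped. At a derived level of 0.193 normalised counts in C, the fold change of FLVCR2-AS1 (-5.63 ± 1.32) is poorly determined in size. It and FLVCR2, a membrane transporter (-2.82 ± 0.20), were both higher in V per the authors' deposited table. ALDH1A3, a retinaldehyde dehydrogenase (-1.44 ± 0.08), and ALDH1A3-AS1 (-3.47 ± 1.26) were too, as was the semaphorin SEMA3B (-1.77 ± 0.18) with SEMA3B-AS1 (-3.31 ± 0.72) per the authors' deposited table. SEMA3B and SEMA3B-AS1 start 187 bases apart in GENCODE 29 but 5748 bases apart in RefSeq, so their head-to-head arrangement depends on the annotation.

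PRSS23, a serine protease, differed most from its antisense RNA among same-side pairs. It had derived levels of 8.07 normalised counts in C and 1800 in V (-7.80 ± 0.30 per the authors' deposited table), whereas PRSS23-AS1, whose span overlaps it without shared exons, had 5.18 in C and 21.3 in V (-2.04 ± 0.55 per the authors' deposited table). The remaining same-side pairs higher in V were EHD4, RNF144A, ATXN1, RALGPS2, STIM2, TTC23, TTC39A, B4GALT1 and CAPN1 with their -AS1 RNAs. Their fold changes per the authors' deposited table ran from -2.80 to -1.22 for the sense genes and from -5.08 to -1.74 for the antisense RNAs. The antisense RNAs of EHD4, RNF144A, ATXN1 and RALGPS2 had derived levels in C of 0.159, 0.263, 0.599 and 0.656 normalised counts. Their fold changes are thus poorly determined in size. Of all 30 same-side pairs, the 95% intervals of the fold changes overlapped in 25 and were apart in 5: EHD4, ELF3, PRSS23, IRF1 and ZEB1. In EHD4 the antisense RNA had the larger listed fold change, poorly determined in size, and in the other 4 the sense gene did. The antisense RNA had the larger listed fold change in 22 of the 30, but its standard error was also larger, with medians over the 35 called pairs of 0.88 for antisense RNAs and 0.16 for sense genes.

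On the C side stood 5 same-side pairs. TMPO, a lamina-associated polypeptide, had derived levels of 3327 normalised counts in C and 1386 in V (1.26 ± 0.07 per the authors' deposited table). TMPO-AS1 had 55.5 in C and 23.0 in V (1.27 ± 0.28 per the authors' deposited table), and per kb of exon it made up 4.27% of the TMPO level in C and 4.25% in V. The fold changes of TMPO and TMPO-AS1 differed by less than either standard error. RRS1, a ribosome biogenesis factor (1.26 ± 0.13), and RRS1-AS1 (2.10 ± 0.49) lie head to head and were both higher in C per the authors' deposited table. ELOVL2, a fatty acid elongase (2.27 ± 0.18), and ELOVL2-AS1 (2.95 ± 0.92) were higher in C per the authors' deposited table as well. VASH1, a tubulin carboxypeptidase (1.40 ± 0.52), was scarcer than its antisense RNA VASH1-AS1 (1.66 ± 0.22) per the authors' deposited table, with derived levels of 27.8 (C) and 10.5 (V) for VASH1, and 86.6 (C) and 27.5 (V) for VASH1-AS1. TP73, a p53 family member (1.54 ± 0.30), and TP73-AS3 (5.36 ± 1.87) complete the group per the authors' deposited table, with TP73-AS3 at a mean of 1.38 normalised counts. The derived levels of TP73-AS3 were 2.69 in C and 0.0657 in V, so its fold change is poorly determined in size.

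The mean level of the antisense RNA was below the partner's in 33 of the 35 called pairs and above it in 2, ZEB1-AS1 and VASH1-AS1. Per kb of exon, the median derived antisense level was 12.3% of the sense level in C and 6.71% in V. It was above the sense level in 5 pairs in C and in 4 in V. Across the 35 pairs, the fold changes of antisense RNA and partner had Pearson's r of 0.35 and Spearman's rho of 0.27, a description over genes of the same libraries in which values between the limits of the table are missing.

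**Figure D4:**
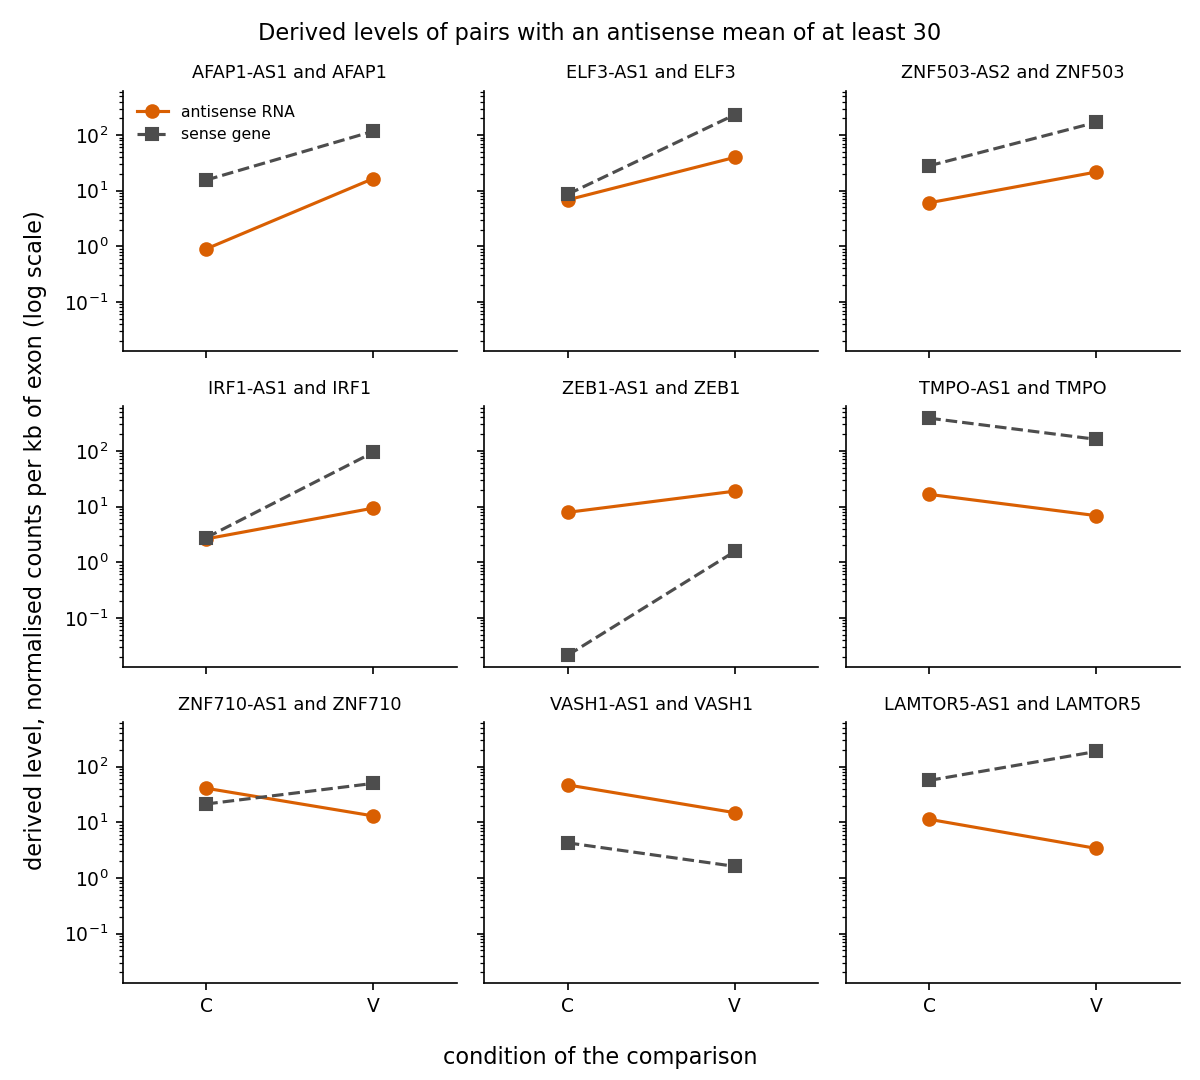
Derived levels in C and V (x axis) of 9 antisense RNAs with a mean of at least 30 normalised counts (orange) and of their sense genes (grey), in normalised counts per kb of exon on a log scale (y axis); no error can be given. The lines of each pair slope the same way except for ZNF710-AS1 and LAMTOR5-AS1, and in the ELF3 and IRF1 pairs the levels lie close together in C and apart in V.

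Opposite sides were held by 5 called pairs. LAMTOR5, a subunit of the lysosomal Ragulator complex, had derived levels of 135 normalised counts in C and 449 in V (-1.73 ± 0.14, adjusted p = 1.63e-31 per the authors' deposited table). LAMTOR5-AS1 had 122 in C and 36.5 in V (1.74 ± 0.25, adjusted p = 1.29e-11 per the authors' deposited table). The shifts were thus of nearly equal size and opposite sign. LAMTOR5-AS1 is a long transcription unit at 110347116 to 110443817 on chromosome 1 (GENCODE 29, GRCh38), with 418 of its exon bases, 3.89%, shared with LAMTOR5. The genes start 60826 bases apart in GENCODE 29 and 115 bases apart in RefSeq.

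ZNF710, a zinc finger gene, had derived levels of 105 normalised counts in C and 247 in V (-1.23 ± 0.14, adjusted p = 2.01e-16 per the authors' deposited table). ZNF710-AS1 had 119 in C and 37.8 in V (1.65 ± 0.23, adjusted p = 2.35e-12 per the authors' deposited table). Per kb of exon the antisense RNA stood at 192% of its partner in C and 26.0% in V. The pair shares 793 exon bases, 27.3% of the antisense RNA's exons.

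The other 3 opposite pairs rested on scarce RNAs. SAPCD1-AS1 had derived levels of 1.07 normalised counts in C and 11.0 in V (-3.36 ± 1.17), and SAPCD1 had 16.1 in C and 4.44 in V (1.86 ± 0.56), both from the authors' deposited table. These genes lie in the major histocompatibility region and share 331 exon bases, 71.8% of the antisense RNA's exons. VWA7, which lies 1 base from SAPCD1-AS1 on the same strand, was listed at -3.22 ± 0.40 per the authors' deposited table, on the side of the antisense RNA; its part in the SAPCD1-AS1 value was not tested. TCEAL3-AS1 (3.02 ± 1.26) faced TCEAL3 (-1.45 ± 0.22) per the authors' deposited table, with a derived V level of 0.501 for the antisense RNA. SIGLEC10-AS1 (4.36 ± 1.75) and SIGLEC10, a sialic-acid-binding receptor of leukocytes (-4.51 ± 1.61), had means of 1.46 and 2.03 normalised counts per the authors' deposited table, so that neither fold change is well determined. Of the pairs on opposite sides in which both means reached 10, LAMTOR5 and ZNF710 were the 2.

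In the 8 listed pairs in which 1 gene was not called, 5 lay on the same side (AQP4, CEBPB, CYLD, SYNM and TRHDE) and 3 on opposite sides (DLGAP1 with 2 antisense RNAs, and DLGAP4). CEBPB, a stress-responsive transcription factor, was called (-3.21 ± 0.12), whereas CEBPB-AS1 was listed at -1.42 ± 0.69 with an adjusted p of 0.0821 per the authors' deposited table. DLGAP1-AS1 (-2.09 ± 0.32) and DLGAP1-AS2 (-3.41 ± 0.68) were called on the V side, whereas DLGAP1, a postsynaptic scaffold gene, was listed at 2.21 ± 1.08 with an adjusted p of 0.0841 per the authors' deposited table.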

How the data were processed

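RNA was sequenced from 3 libraries of the abiraterone-selected C4-2B subline and 3 of the parental line, as 50 bp single ends per the labels' protocols. A single table of the authors' comparison was used, without values per library, so depth per sample is unknown and no test across libraries was run. The base mean is a signal value, the average of normalised counts across samples as the authors made it with DESeq2, per the file headers. The log2 fold changes deposited are maximum likelihood estimates for C against V, per the file headers. Standard error and Wald statistic were deposited by the authors as further score columns. Each p-value is deposited from a Wald test, beside its adjusted form. The submitters' processing notes list FastQC and Cufflinks 2.2.1 but no role for either. Aligner, counter, strand setting and build were not given in the sources used here. Nothing in the labels shows that libraries came from separate cultures, so the listed p-values may reflect technical spread alone.

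The design foresaw a count model or limma for values per library, and otherwise counts and medians of listed values, which was followed. Members, lists and comparisons were chosen with earlier results of these data known. Named genes were the 10 called members with the smallest p on each side, both genes of each called pair, the 5 with the highest mean, listed members of the published-role list and those beside the call limit; neighbouring genes were named after their values were seen. An adjusted p of 0 beside a p above 0 (4 genes, none of them antisense RNAs of the set) was read as not given. Positions, types and merged exons came from GENCODE release 29 (GRCh38), matched by Ensembl identifier (a partner symbol shared by several genes was taken as the listed gene, otherwise as the protein-coding one), and promoter windows from RefSeq (GRCh38.p14). Python 3.11.15, pandas 2.3.3 and scipy 1.17.1 were used. Pairing and arrangements were tested on simulated data. For derived levels the simulated data checked the formula only, and not its assumption of as many libraries in C as in V. Alternatives changed the call limit, the fold change, the mean level, the symbols and the definition of a pair.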

Additional observations from a re-analysis of the deposited data

How the results depend on the processing

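The set of 119 called antisense RNAs, split 55 (C) to 64 (V), stayed within 1.5 times with symbols ending in -AS with or without a digit and with current symbols, as did the 35 called pairs, 30 on the same side and 5 on opposite sides. With an adjusted p under 0.01 there were 42 called higher in V, 20 pairs, 18 on the same side and 2 on opposite sides, and the median log2 fold change of called antisense RNAs, -1.41 as reported, turned to 1.20. Limited to log2 fold changes of 2 or more in size there were 65 called, 21 of them higher in C, a median of -2.52, 11 pairs, 10 on the same side and 1 on opposite sides. With a mean of at least 10 there were 72 called, 33 of them higher in V, a median of 1.29, 16 pairs, 14 on the same side and 2 on opposite sides. With a mean of at least 100 there were 7 called, 3 for C and 4 for V, a median of -2.01, 1 pair, on the same side, and 0 on opposite sides. The median changed sign where the majority passed from V to C, with 43 higher in C and 42 in V at the stricter adjusted p and 39 in C and 33 in V at a mean of at least 10. No called antisense RNA lies between -1.22 and 1.20, so a small change in these counts moves the median far. Pairs whose exons do not overlap numbered 11, 10 on the same side and 1 on opposite sides. Pairs by position numbered 38, 31 on the same side and 7 on opposite sides. The stricter settings leave fewer genes by construction.

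Leaving out a library could not be run because the table has no value per library. No paired analysis was possible because the columns carry no replicate numbers. Scarcity limits many results: called antisense RNAs with a mean under 10 had a median standard error of 1.12 (log2), against 0.41 for means from 10 to 100 and 0.24 for higher means. Some with higher means had large errors too, such as AFAP1-AS1 (1.05 at a mean of 59.1) and ALDH1A3-AS1 (1.26 at 26.8). IRF1-AS1, by comparison, had 0.25 at a mean of 58.2. Spread between libraries could not be examined.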

Other observations

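Some called antisense RNAs lay beside or across a called gene that is not their name partner. Counted were genes that overlap an antisense RNA on either strand or come within 1000 bases of it. There were 19 such pairings, 16 on the same side and 3 on opposite sides. Protein-coding genes made up 9 of them, 7 on the same side and 2 on opposite sides. Nearest called protein-coding genes without overlap gave 65.5% on the same side, and the difference was not tested. Some pairings share exon bases on 1 strand, so reads from those bases cannot be told apart. Examples are ATP8B1-AS1 with ENSG00000267787 (494 bases, same side) and SLC30A4-AS1 with HMGN2P46 (147 bases, opposite sides). PSMB8-AS1 overlaps the antigen-processing genes TAP1 (-3.04 ± 0.12 in the authors' deposited table), with 456 shared exon bases, and PSMB9 (-6.46 ± 0.75 in the authors' deposited table), with 174; these 3 were called on the V side. KRTAP5-AS1 (-2.81 ± 0.56) overlaps the 5′ end of the phosphatase gene DUSP8 (-1.54 ± 0.13), and EHMT2-AS1 (-1.41 ± 0.27) that of the transporter gene SLC44A4 (-1.38 ± 0.08), in both cases on opposite strands and without exon overlap; these 4 were called on the V side per the authors' deposited table. FAM131B-AS2 (-4.20 ± 0.68), which is on the same strand as FAM131B, starts 585 bases from the focal adhesion gene ZYX (-1.53 ± 0.11) on the other strand, and the authors' deposited table has both higher in V.

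The opposite arrangement was found for LIPE-AS1 (2.14 ± 0.39), higher in C, across the adhesion receptor gene CEACAM1 (-7.13 ± 1.04), higher in V, per the authors' deposited table; they share 185 exon bases. SLC30A4-AS1 (-4.64 ± 1.17), higher in V, shares 147 exon bases on the same strand with the pseudogene HMGN2P46 (2.57 ± 0.17), higher in C, per the authors' deposited table. LAMTOR5-AS1 (1.74 ± 0.25) and SLC16A4-AS1 (2.30 ± 0.26), which overlap on 1 strand without sharing exons, were both higher in C per the authors' deposited table. SAPCD1-AS1 (-3.36 ± 1.17) lay opposite in side to the read-through gene MSH5-SAPCD1 (2.21 ± 0.52), with 411 shared exon bases, but on the same side as VWA7 (-3.22 ± 0.40), 1 base away on its own strand, per the authors' deposited table.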
